A study of Mus musculus with 4 samples.

Results

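Smooth muscle cells from the aortic arch and from the descending thoracic aorta of Smad4 cKO mice were compared across all genes. Cells needed at least 500 detected genes and less than 10% mitochondrial UMIs (unique molecular identifiers, 1 per captured transcript). A cell was taken as smooth muscle at 5 or more UMIs of Myh11, 20 or more of Acta2, fewer than 10 of Spp1 and 0 of Ptprc, Pecam1 and Pdgfra. The cells were thus chosen by their measured UMIs of these 6 genes, whose levels are described without being read as results. This chose 833 of 5842 kept cells of the cKO arch library and 983 of 5901 of the cKO descending library, together 1816 of the 25593 cells kept in the whole series. The same rule chose 1845 cells of the control arch and 792 of the control descending library, which serve as a reference pair.

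Both cKO groups carried CNC-SMC-Cre, Smad4flox/flox and R26-tdT, and both control groups carried CNC-SMC-Cre and R26-tdT, with mice aged 16 to 20 weeks. All 4 groups therefore share the driver and the reporter, and the cKO pair differs in the piece of aorta. The cells in which the driver acts, its promoter and the number of animals behind each library are not stated in the labels. Each group is 1 library of a droplet 5′ single-cell assay, so no difference below has a replicate check, no test was made, and each interval printed covers 95% counting error alone.

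As background, smooth muscle of the arch derives largely from cardiac neural crest, and that of the descending aorta from paraxial mesoderm. Hox transcription factors record position along the body axis, with higher-numbered groups used further towards the tail, and Hand2 is a transcription factor of the branchial arches and outflow tract. Smad4 joins the receptor-activated Smads of the TGF-beta and BMP pathways and carries their signal to DNA. Contractile proteins, calcium and potassium channels and receptors for vasoactive ligands set the tone of these cells.

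Promoters of 4 genes described below are shown here so that the DNA can be read beside the values. Each is the 250 bases upstream of the RefSeq start, 5′ to 3′ on the gene's strand, from RefSeq on GRCm38.p6, and 77 of the 118 named genes had an entry. Capitals mark matches on either strand to the E-box CACGTG, the BMP Smad element GGCGCC, the Smad box GTCTG or the TATA box TATAAA. Hand2 is the arch factor with the highest ratio (chr8:57320733-57320982, plus strand), Hoxa7 and Hoxb8 are posterior Hox genes of 2 clusters (chr6:52218574-52218823, minus strand, and chr11:96281655-96281904, plus strand), and Olfr558 is a gene of a subset of descending cells (chr7:102702073-102702322, plus strand).
Hand2: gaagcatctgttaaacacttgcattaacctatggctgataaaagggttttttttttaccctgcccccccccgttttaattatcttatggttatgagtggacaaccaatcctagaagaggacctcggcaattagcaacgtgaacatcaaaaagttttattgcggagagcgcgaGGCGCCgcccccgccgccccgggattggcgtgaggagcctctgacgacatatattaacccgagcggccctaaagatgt
Hoxa7: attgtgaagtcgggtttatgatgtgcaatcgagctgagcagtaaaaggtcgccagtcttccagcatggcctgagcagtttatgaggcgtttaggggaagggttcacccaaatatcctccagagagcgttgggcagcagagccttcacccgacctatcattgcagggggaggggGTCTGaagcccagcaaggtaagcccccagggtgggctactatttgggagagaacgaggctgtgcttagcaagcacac
Hoxb8: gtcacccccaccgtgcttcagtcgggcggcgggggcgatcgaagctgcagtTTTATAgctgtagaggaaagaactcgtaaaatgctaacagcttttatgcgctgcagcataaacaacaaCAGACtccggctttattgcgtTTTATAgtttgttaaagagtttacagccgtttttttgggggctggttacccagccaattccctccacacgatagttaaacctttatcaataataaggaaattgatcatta
Olfr558: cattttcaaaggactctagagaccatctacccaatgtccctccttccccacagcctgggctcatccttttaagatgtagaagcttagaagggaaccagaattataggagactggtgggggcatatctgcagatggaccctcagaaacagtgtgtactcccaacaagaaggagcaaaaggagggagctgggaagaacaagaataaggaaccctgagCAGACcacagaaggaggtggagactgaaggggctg

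The Hand2 window held 1 BMP Smad element, the Hoxa7 window 1 Smad box, the Hoxb8 window 1 Smad box and 2 TATA boxes, and the Olfr558 window 1 Smad box. No match overlapped another. Of 32851 promoter windows of this length, 6.02% held the E-box, 9.59% the BMP Smad element, 42.2% the Smad box and 12.4% the TATA box. A match is a description of these letters and shows no binding. The GENCODE vM21 models of Hoxa7 and Olfr558 reach beyond the RefSeq start, so these windows lie inside or across the start of the longer model.

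The rule required Myh11 and Acta2, so identity was read from the other 10 smooth muscle markers. All 10 were detected in each library, with a summed level of 26901 CPM (UMIs scaled to an equal library total) in the cKO arch and 29320.5 CPM in the cKO descending library. Median depth was 11330 and 11215 UMIs per chosen cell, and the summed cells held 10663229 and 11352643 UMIs. Near the limits of the rule, 33 cells of the arch and 8 of the descending library had exactly 5 Myh11 UMIs, and 34 and 7 otherwise eligible cells had 4. The Spp1 limit left out 14 arch cells and 0 descending cells. The condition on Pecam1 applied to 146 and 415 cells with enough Myh11 and Acta2, that on Pdgfra to 188 and 210, and that on Ptprc to 52 and 36. The cKO arch library stood apart in several ways. Its file alone was counted against another annotation, and its chosen cells had a median of 4.20% mitochondrial UMIs against 2.93% in the cKO descending library. Its barcodes had a median of 2694 UMIs, against 5445, 9554 and 5269 in the cKO descending, control arch and control descending libraries. In that order, 1723 of its barcodes failed the mitochondrial limit against 331, 86 and 362, and 2311 failed the gene limit against 665, 594 and 943. It held 335 cells with 10 or more Spp1 UMIs and no Ptprc or Pecam1 UMI, against 0, 4 and 1. The 2 cKO libraries shared 93 barcodes of 8634 and 6813.

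Regional differences were more often on the descending side. Of 10260 genes with at least 100 UMIs in both cKO libraries together, 256 were at least 2-fold higher in the arch (2.5% of the genes) and 636 were at least 2-fold lower (6.2%), so 8.69% lay past 2-fold. The median log2 ratio of all these genes was -0.16, and the ratios below are read against that shift. With the library totals rescaled so that the median gene is level, the counts were 343 and 479, and the share of higher genes among those past 2-fold went from 28.7% to 41.7%. Many of these genes differed in other cells of the same libraries too. Of the 256 higher genes, 178 had the same direction and at least 0.5 of the log2 ratio in fibroblast- or endothelial-gated cells (whole-library genes), and 94 were at 0.5 or more of the smooth muscle level per cell in leukocyte-gated cells (free RNA genes). Of the 636 lower genes, 397 and 187 were of these kinds. The free RNA rule does not separate free RNA from genes that leukocyte-gated cells express themselves.

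Hox genes, which record position along the body axis, differed strongly between the regions. All 5 Hox genes of groups 6 to 13 with enough UMIs were lower in the arch, beside 6.2% of all genes, with a median log2 ratio of -3.81 in the cKO pair and -5.97 in the control pair. Hoxa7 stood at 4.50 CPM in the cKO arch, 63.2 in the cKO descending, 0.976 in the control arch and 62.3 in the control descending cells. The cKO log2 ratio of Hoxa7 was -3.80 (-4.27 to -3.39). Hoxb8, a neighbour of Hoxb7 on chromosome 11, had 2 UMIs in the cKO arch and 236 in the cKO descending cells, which are 0.188 and 20.8 CPM, a log2 ratio of -6.47 (-9.85 to -4.92). In both pairs the descending libraries were high and the arch libraries low for these genes.

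Hoxb7 stood at 1.88, 26.9, 0.312 and 20.3 CPM in the cKO arch, cKO descending, control arch and control descending cells. Hoxb6 stood at 5.44, 31.3, 2.30 and 27.3 CPM in the same order, which is used from here on. Hoxc6 had 2 and 195 UMIs in the cKO pair, a log2 ratio of -6.20 (-9.57 to -4.64). Fibroblast-gated cells of the cKO pair differed the same way, with a log2 ratio of -4.43 for Hoxa7 and with 0 and 101 UMIs of Hoxb8, so the difference was not confined to smooth muscle.

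The more anterior Hox genes differed less. Hoxa2, Hoxa3 and Hoxa4 had log2 ratios of -0.26 (-0.82 to 0.29), -0.21 (-0.41 to -0.02) and 0.46 (0.06 to 0.86). In the HoxB cluster, Hoxb2 had -0.58, Hoxb3 -0.48, Hoxb4 -0.70, Hoxb5 -1.20 and Hoxb6 -2.51 (-2.95 to -2.12). Of 8 tested members of groups 1 to 5, 1 was past 2-fold, and that was Hoxb5 at 9.003, 20.8, 5.58 and 23.0 CPM. Along the HoxB cluster the intervals of neighbours overlap from Hoxb2 to Hoxb5, and they do not overlap between Hoxb5, Hoxb6, Hoxb7 and Hoxb8, each lower than the one before.

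Per cell, posterior Hox RNA was sparse but widespread in the descending aorta. At least 1 UMI of groups 6 to 13 was found in 9.72% of cKO arch, 74.98% of cKO descending, 4.66% of control arch and 76.0% of control descending smooth muscle cells. With each cell thinned to 3000 UMIs the shares were 3.64, 41.0, 1.66 and 35.6%, beside 0.707, 1.65, 1.31 and 1.99% of leukocyte-gated cells, whose median depth was between 5429 and 7435 UMIs before thinning. The control arch share was thus close to that of leukocyte-gated cells. The cKO arch share was above it, and 33 of the 833 cKO arch cells held 2 or more such UMIs, against 20 of 1845 control arch cells. Where along the vessel each piece ended is not stated in the labels.

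**Figure D1:**
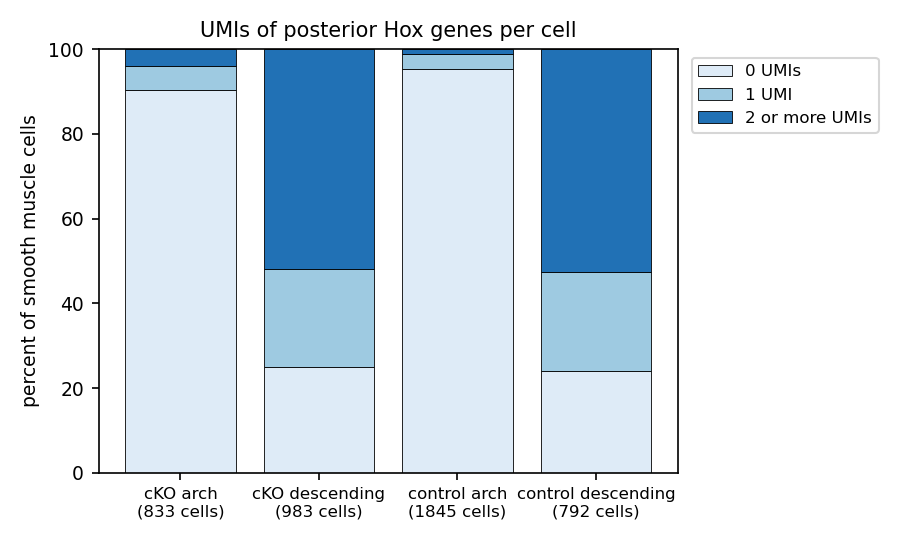
Percent of smooth muscle cells (vertical axis) with 0, 1 or at least 2 UMIs of Hox genes of groups 6 to 13 (stacked colours) in each of the 4 libraries, without thinning. At least 1 UMI was found in 74.98 and 76.0% of cKO and control descending cells and in 9.72 and 4.66% of cKO and control arch cells.

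Hand2 differed in the opposite direction to the posterior Hox genes. It stood at 62.8, 0.881, 70.5 and 0.484 CPM, with 670 UMIs in the cKO arch and 10 in the cKO descending cells, and a cKO log2 ratio of 6.09 (5.27 to 7.22). Both arch libraries were high and both descending libraries near 0. Hand2 lies on chromosome 8 at 57320983 to 57324633 (ENSMUSG00000038193, mm10, plus strand). Fibroblast-gated cells of the cKO pair held 216 (arch) and 1 (descending) Hand2 UMIs, and endothelial-gated cells 9 and 0, so this difference was not confined to smooth muscle either.

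Other transcription factors of the outflow tract list divided by region. Of 15 tested members 3 were past 2-fold higher in the cKO arch and 4 past 2-fold lower, beside 2.5 and 6.2% of all genes, around a list median of -0.23. In the control pair, where 21 members were tested, 9 were higher and 2 lower, beside 1.88 and 3.16% of all genes there. The control median was 0.35, and the 2 pairs thus cover different members. Prrx2, a homeobox factor of mesenchyme, stood at 20.4, 3.08, 36.9 and 1.84 CPM, a log2 ratio of 2.71 (2.20 to 3.28). Tbx20, a T-box factor of the heart, stood at 24.9, 5.55, 16.8 and 4.45 CPM, a log2 ratio of 2.16 (1.77 to 2.59). Both arch libraries lay above both descending libraries for these genes. The T-box factors Tbx2 and Tbx3 were on the descending side, with Tbx2 at 15.9, 59.6, 16.2 and 54.8 CPM and Tbx3 at 2.34, 13.6, 4.96 and 9.38 CPM. The cells with odorant receptor UMIs described below held 67.8% of cKO descending Tbx2 UMIs, and without them the Tbx2 ratio was -0.57 (-0.88 to -0.27), which ends the 2-fold call.

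Among paraxial mesoderm factors, Tcf15, which acts in somite formation, stood at 4.97, 61.0, 10.5 and 34.4 CPM, a log2 ratio of -3.60 (-4.05 to -3.21). Cells with an odorant receptor UMI, described below, held 82.5% of its cKO descending UMIs. Without them the Tcf15 ratio was -1.90 (-2.50 to -1.37), and without cells with a UMI of Olfr78, Olfr558, Nrip2 or S1pr3 it was -0.67 (-1.42 to 0.04), no longer past 2-fold. Scx, a factor of tendon progenitors on the same list, went the other way at 99.97 CPM in the cKO arch and 20.4, 17.5 and 15.8 CPM in the other libraries. Of 14 tested members of the list, 1 was past 2-fold higher and 2 past 2-fold lower, beside 2.5 and 6.2% of all genes.

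Among genes that passed the filters on other cells, free RNA and whole-library differences, Sphkap led the arch side. Sphkap anchors protein kinase A, and it lies on chromosome 1 at 83254139 to 83408200 (ENSMUSG00000026163, mm10, minus strand). It stood at 74.9, 1.94, 16.3 and 1.64 CPM, a cKO log2 ratio of 5.24 (4.66 to 5.96) and a control ratio of 3.27. Both arch libraries were above both descending libraries, with the cKO arch highest. After thinning, 16.0% of cKO arch cells held a Sphkap UMI, against 0.732, 4.11 and 0.261% in the other libraries and 1.21% of leukocyte-gated cells of the cKO arch.

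Tlcd2, which encodes a membrane protein, was high in the cKO arch alone, at 52.4 CPM against 2.99, 2.69 and 1.93 CPM. Its log2 ratio was 4.11 (3.63 to 4.67). Fbln2, an extracellular matrix glycoprotein bound to elastic fibres, was likewise high in the cKO arch alone, at 94.9, 10.2, 12.4 and 10.3 CPM, with a log2 ratio of 3.21 (2.94 to 3.51). The Fbln2 UMIs were unevenly spread, since the 84 cKO arch cells with the most held 88.2% of them, while the same number of cells held 45.8% of Tlcd2 UMIs. Over all kept cells Fbln2 was lowest in the cKO arch, at 167, 318, 175 and 285 CPM.

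Ace, the angiotensin-converting enzyme, was the most abundant of the 12 highest genes, at 342, 60.2, 160 and 71.2 CPM and a log2 ratio of 2.50 (2.39 to 2.62). Slc43a3, a nucleobase transporter, stood at 44.5, 9.87, 25.1 and 10.3 CPM. Nxph1, a neurexin ligand, stood at 21.7 and 2.73 CPM in the cKO pair, and had 0.703 CPM in the control arch and 0 UMIs in the control descending cells, which bounds the control ratio at 2.42-fold or more. For Ace and Slc43a3 the arch was above the descending aorta in smooth muscle of both genotypes. Over all kept cells Slc43a3 stood at 59.1 CPM in the cKO arch and 115 CPM in the cKO descending library.

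The other 4 of the 12 were higher in the cKO arch than in any other library. Maff, a small basic leucine zipper factor, stood at 55.3, 10.1, 15.0 and 10.2 CPM. The matricellular gene Smoc2 stood at 24.8, 5.73, 10.5 and 12.4 CPM. Ndnf, a secreted factor, stood at 22.5, 6.52, 7.61 and 8.42 CPM, and Cd34, a sialomucin of progenitor and stromal cells, at 45.6, 13.4, 11.01 and 10.3 CPM. Smoc2, Ndnf and Cd34 were unevenly spread, since the 84 cKO arch cells with the most of each held 90.2, 92.1 and 92.6% of its UMIs. The filters had removed genes with a like difference in fibroblast-gated cells, so its absence there was fixed by the choice of genes. The fibroblast-gated log2 ratios were -2.17, -1.71 and -1.97 for Smoc2, Ndnf and Cd34. Over all kept cells Smoc2 stood at 45.8 CPM in the cKO arch and 164 CPM in the cKO descending library, and Cd34 at 116 and 300 CPM.

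**Figure D2:**
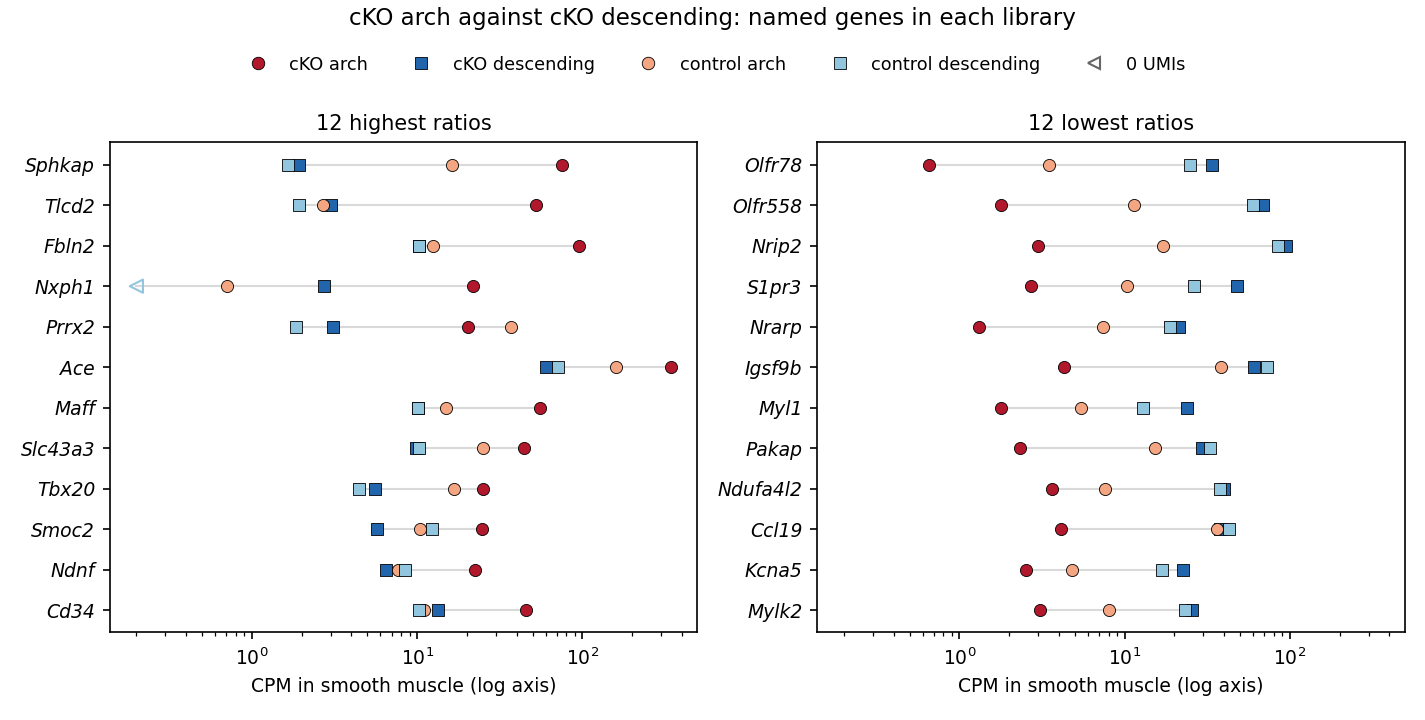
CPM in smooth muscle (horizontal log axis) of the 12 genes with the highest and the 12 with the lowest ratio of cKO arch to cKO descending after the filters, with 1 point per library and a triangle for 0 UMIs. In each of the 12 lowest genes both descending libraries (squares) lie above both arch libraries, and the cKO arch lies below the control arch.

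On the descending side, the 2 genes with the lowest ratio after the filters were odorant receptors found in a subset of cells. Olfr78 and Olfr558 are odorant receptors, and as background both are known outside the nose, in vascular smooth muscle among other tissues. Olfr78 stood at 0.656, 33.6, 3.51 and 24.8 CPM, a log2 ratio of -5.58 (-7.00 to -4.62), and Olfr558 at 1.78, 68.4, 11.5 and 60.1 CPM, a log2 ratio of -5.23 (-6.0015 to -4.61). The genes are neighbours on chromosome 7, at 102738511 to 102759471 (ENSMUSG00000043366, minus strand) and 102702215 to 102712064 (ENSMUSG00000070423, plus strand), and their models do not overlap. Both descending libraries were high, the control arch lower and the cKO arch lowest.

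Cells with at least 1 UMI of Olfr78 or Olfr558 made up 1.08% of cKO arch smooth muscle (9 cells, 95% Clopper-Pearson interval 0.495 to 2.04%), 17.8% of cKO descending (175 cells, 15.5 to 20.3%), 3.74% of control arch (69 cells) and 12.9% of control descending smooth muscle (102 cells). After thinning the shares were 0.728, 14.1, 2.50 and 10.6%, beside at most 0.235% of leukocyte-gated cells. In the cKO descending aorta, these cells held 88.1% of the UMIs of Nrip2, 94.9% of S1pr3, 92.6% of Nrarp, 91.9% of Myl1, 90.8% of Ndufa4l2 and 86.0% of Kcna5. All 6 are among the 12 lowest genes. The gate was chosen after these values had been seen.

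Within these cells gene levels could be read only roughly, since the cKO arch had 9 of them. Olfr78 itself had 7 UMIs there, and Igsf9b and Ccl19 had 0. Nrip2, a nuclear receptor cofactor, stood at 3.001, 94.7, 17.1 and 84.6 CPM over all smooth muscle, and at 332, 569, 644 and 682 CPM in the gated cells. S1pr3, a sphingosine-1-phosphate receptor, stood at 2.72, 47.9, 10.3 and 26.3 CPM over all and at 227, 310, 348 and 225 CPM in the gated cells. Ndufa4l2, a mitochondrial protein also used as a pericyte marker, stood at 3.66, 40.2, 7.57 and 37.8 CPM over all and at 408, 248.7, 268 and 311 CPM in the gated cells. In the cKO descending library Acta2 stood at 20868 CPM inside and 25399 CPM outside the gate, and Myh11 at 4847 and 3574 CPM.

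Without the gated cells, several of these ratios moved towards 0 and others did not. S1pr3 went from -4.12 to -1.10 (-2.17 to -0.16), Kcna5 from -3.14 to -1.27 (-2.25 to -0.41) and Ndufa4l2 from -3.44 to -1.89 (-2.998 to -0.98). Nrip2 went from -4.96 to -3.74 (-4.90 to -2.88). Igsf9b, Mylk2 and Ccl19 hardly moved, at -3.85, -3.25 and -3.31, and their UMIs in gated cells of the cKO descending library were 10.6, 0.342 and 6.51% of all. Leaving out cells with a UMI of Olfr78, Olfr558, Nrip2 or S1pr3 (23 and 223 cells) kept 10 of the 12 highest genes and 3 of the 12 lowest. These gating genes are themselves among the 12 lowest, so their own loss was fixed by the step. The 2 counts therefore cannot be compared directly. The lowest 12 then included Gpsm2 (-2.73), the potassium channel subunit Kcns3 (-2.48), Fibin (-2.38) and the calcitonin receptor-like receptor Calcrl (-2.16).

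**Figure D3:**
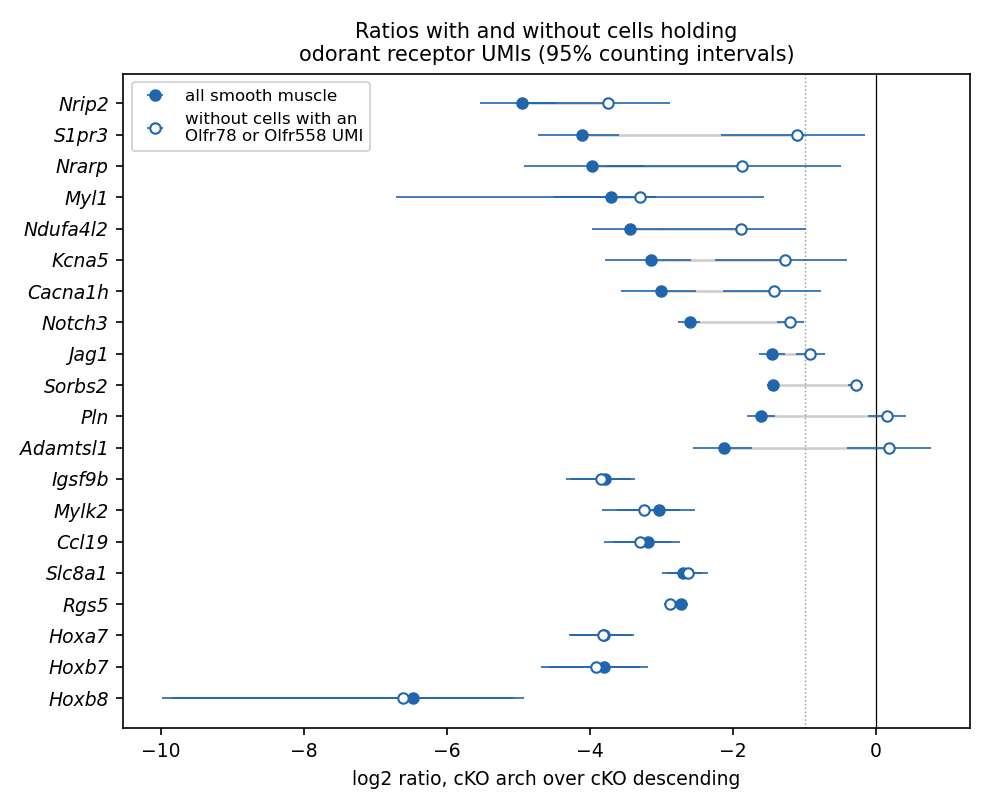
Log2 ratios of cKO arch over cKO descending smooth muscle (horizontal axis, lines are 95% intervals of counting error) over all cells (filled) and without cells holding an Olfr78 or Olfr558 UMI (open). S1pr3 went from -4.12 to -1.10 and Pln from -1.60 to 0.15, while Hoxa7, Rgs5 and Slc8a1 hardly moved.

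Other genes of the 12 lowest were these. Igsf9b, an immunoglobulin superfamily member, stood at 4.31, 60.5, 38.3 and 72.3 CPM, a log2 ratio of -3.80 (-4.27 to -3.38). It was 1 of 27 tested genes that stood at least 8-fold below every other library over all kept cells of the cKO arch, and for such genes the annotation of that file and the condition cannot be told apart. Mylk2, which encodes the skeletal muscle myosin light chain kinase, stood at 3.09, 25.7, 8.04 and 23.1 CPM. Pakap (2.34, 29.5, 15.2 and 32.9 CPM) has 2 gene identifiers, which carry other symbols in the cKO arch file, and Ccl19 (4.13, 37.9, 36.2 and 42.9 CPM) has near-identical copies, so both values are uncertain.

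Ion channels and calcium handling genes were lower in the cKO arch as a list. Of 29 tested members 12 were past 2-fold lower and 1 higher, beside 6.2 and 2.5% of all genes, and the list median was -0.78 in the cKO pair and -0.38 in the control pair. Slc8a1, the sodium-calcium exchanger, stood at 11.3, 74.3, 88.8 and 89.3 CPM, a log2 ratio of -2.71 (-2.997 to -2.43). Only the cKO arch was low for Slc8a1, and endothelial-gated cells of the cKO pair had a ratio of -3.10. Kcnk3, a potassium leak channel, stood at 11.3, 62.0, 22.3 and 45.1 CPM, and Kcnma1, the pore of the large-conductance calcium-activated potassium channel, at 30.6, 90.3, 77.7 and 95.4 CPM. Cacna1c, the pore of the L-type calcium channel, stood at 29.4, 81.1, 36.1 and 86.4 CPM. For Cacna1c both arch libraries were below both descending libraries.

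Per cell, the 40 channel and calcium genes took a median of 0.154% of UMIs in cKO arch smooth muscle, 0.247% in cKO descending, 0.199% in control arch and 0.244% in control descending smooth muscle. Voltage-gated subunits found mostly in the odorant receptor cells included Kcna5, at 2.53, 22.7, 4.801 and 16.8 CPM, and Cacna1h, a T-type calcium channel, at 3.38, 27.4, 3.90 and 15.7 CPM, with 86.0 and 78.5% of their cKO descending UMIs in those cells. The mechanosensitive channel Piezo2 was the member past 2-fold higher, at 11.5, 5.29, 10.2 and 6.48 CPM.

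Many receptors for vasoactive ligands had ratios below 0 as well. Of 20 tested members 8 were past 2-fold lower in the cKO arch and 1 higher, beside 6.2 and 2.5% of all genes, with a list median of -0.71 in the cKO pair and -0.40 in the control pair. Without cells holding an Olfr78 or Olfr558 UMI the cKO median was -0.12, beside -0.15 for all genes. Ednra, the endothelin receptor of smooth muscle, stood at 8.53, 44.4, 19.9 and 45.4 CPM, a log2 ratio of -2.37. Calcrl stood at 12.004, 56.2, 26.2 and 58.1 CPM and Ptger3, a prostaglandin E receptor, at 0.563, 17.8, 1.91 and 10.8 CPM. How far Ednra and Ptger3 depend on the cells with odorant receptor UMIs was not examined. The alpha-1 adrenergic receptors were on opposite sides, with Adra1d at 13.035, 35.8, 51.4 and 32.7 CPM and Adra1b at 8.25, 3.61, 8.20 and 3.29 CPM. For Adra1d the control pair went the other way, with a log2 ratio of 0.65 against -1.45 in the cKO pair, and this difference was not tested.

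Genes of the Notch pathway, through which neighbouring smooth muscle and endothelial cells signal, had the second lowest list median, after that of the posterior Hox genes. It was -0.87 in the cKO and -0.82 in the control pair, and 5 of 10 tested members were past 2-fold lower in the cKO arch and none higher, beside 6.2 and 2.5% of all genes. The receptor Notch3 stood at 37.5, 229, 47.8 and 194 CPM, a log2 ratio of -2.61 (-2.76 to -2.46), and its ligand Jag1 at 29.6, 81.1, 42.4 and 77.3 CPM. The target Heyl stood at 68.5, 177, 182 and 197 CPM, low in the cKO arch alone. Cells with odorant receptor UMIs held 72.9% of cKO descending Notch3 UMIs, and without them its ratio was -1.20 (-1.39 to -1.01). They held 42.0% of Jag1 UMIs, and the Jag1 ratio went from -1.45 to -0.92, no longer past 2-fold. Without cells of the 4 gating genes the Notch3 ratio was -0.63 and the list median -0.48. Among pericyte markers, which were summed at 736 CPM in the cKO arch and 1792 CPM in the cKO descending cells with all 8 detected, Notch3 and Rgs5 made most of the difference. The part of pericytes in the chosen cells was not tested.

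Rgs5, a regulator of G protein signalling, stood at 111, 735, 406 and 485 CPM, a log2 ratio of -2.72 (-2.81 to -2.63). It was low in the cKO arch alone, and only 6.71% of its cKO descending UMIs lay in the odorant receptor cells. Rgs17 of the same family went the other way in the cKO pair, at 58.6, 11.9, 2.30 and 11.5 CPM. Prkg1, the cyclic GMP-dependent kinase that relaxes smooth muscle, stood at 42.5, 103, 80.4 and 121 CPM, and without cells of the 4 gating genes its cKO ratio went from -1.27 to -0.96, no longer past 2-fold.

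Contractile genes were lower in the cKO arch as a list, and some of the most abundant were level. Of 35 tested members none was past 2-fold higher and 6 were past 2-fold lower in the cKO arch, beside 2.5 and 6.2% of all genes, with a list median of -0.41 in the cKO and -0.14 in the control pair. Tagln stood at 17112, 16999, 17404 and 14847 CPM, a cKO log2 ratio of 0.01 (0.00 to 0.02). Cnn1 (calponin) stood at 1373, 1626, 1902 and 1628 CPM and Smtn (smoothelin) at 756, 1007, 752 and 989 CPM. Acta2, which the cell rule used, stood at 23175 and 24734 CPM in the cKO pair. Myh11, the smooth muscle myosin heavy chain and also a gene of the rule, stood at 1890, 3761, 2754 and 3421 CPM, a cKO log2 ratio of -0.99. The list took a median of 8.36% of UMIs per cell in the cKO arch and 9.16% in the cKO descending cells. These shares include Acta2 and Myh11, so they partly reflect genes of the cell rule and are given as description.

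Contractile genes past 2-fold differed in which libraries were low. Pln (phospholamban), which restrains the calcium pump, stood at 26.5, 80.7, 15.3 and 75.5 CPM, and Sorbs2, an adaptor of the cell cortex, at 147, 398, 142 and 324 CPM, both low in each arch library. Pln and Sorbs2 depended on the odorant receptor cells, which held 76.0 and 63.4% of their cKO descending UMIs, and without cells holding a UMI of any of the 4 gating genes their ratios were 1.16 and 0.37. The myosin phosphatase subunit Ppp1r12a (377, 917, 675 and 786 CPM) and Synpo2 (268, 554, 475 and 554 CPM) were lowest in the cKO arch. Casq2, a calcium store protein, stood at 0.750, 14.9, 4.92 and 9.87 CPM.

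Collagens had a median near 0 in the cKO pair. Of 21 tested collagens 3 were past 2-fold higher and none lower, beside 2.5 and 6.2% of all genes, with a list median of 0.01. In the control pair none of 22 tested was higher and 4 were lower, beside 1.88 and 3.16% of all genes there, with a median of -0.34. Proteoglycans and matricellular proteins had 7 of 30 past 2-fold higher and 2 lower in the cKO arch, beside 2.5 and 6.2% of all genes. The control pair had 1 of 31 higher and 5 lower. Among the higher in the cKO arch were Lum (lumican) at 34.4, 5.64, 24.5 and 11.3 CPM and Comp at 173, 38.5, 18.7 and 31.4 CPM. Matrix proteases and inhibitors had 3 of 22 higher and 2 lower, beside 2.5 and 6.2%, and 1 of 24 higher and 2 lower in the control pair. Col8a1, a short-chain collagen, stood at 73.8, 14.9, 6.21 and 18.9 CPM, with a log2 ratio of 2.31 (2.07 to 2.56) in the cKO pair and -1.60 in the control pair. Ltbp2, a microfibril protein of the elastic fibre list, stood at 141, 21.9, 91.4 and 32.02 CPM, above in both arch libraries. Lox, which crosslinks elastin and collagen, stood at 196, 106, 306 and 204 CPM. Of 20 tested elastic fibre genes 2 were past 2-fold higher, Fbln2 and Ltbp2, and none lower, beside 2.5 and 6.2% of all genes. The control pair had 4 of 20 higher and none lower. The list median was 0.23 in the cKO and 0.15 in the control pair.

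Modulated smooth muscle genes, which mark a switch away from the contractile state, had the highest list median, 0.89 in the cKO and 0.27 in the control pair. Of 22 tested members 10 were past 2-fold higher in the cKO arch and none lower, beside 2.5 and 6.2% of all genes. Spp1, which the cell rule limited, is among them, and without it 9 of 21 were higher with a median of 0.88. Igfbp2, a binding protein of insulin-like growth factors, had 1032, 17.1, 49.2 and 19.5 CPM, a log2 ratio of 5.91 (5.71 to 6.13). Vcam1, an adhesion molecule, stood at 201, 19.9, 20.5 and 13.2 CPM and Tnfrsf11b, a decoy receptor of bone turnover, at 116, 27.9, 15.4 and 35.2 CPM. These genes were high in a minority of cKO arch cells, of which 84 held 86.9% of Igfbp2 UMIs, 91.4% of Vcam1 UMIs and 76.2% of Tnfrsf11b UMIs. Igfbp2 and Tnfrsf11b are among 19 tested genes at least 8-fold above every other library over all kept cells of the cKO arch. For such genes the annotation of that file and the condition cannot be told apart.

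Many members of this list met the free RNA or the whole-library rule. Of its 22 tested members 10 were free RNA genes and 18 had the same direction in fibroblast- or endothelial-gated cells. A separate list of 9 modulated mesenchymal markers was summed at 1697 CPM in the cKO arch and 128 CPM in the cKO descending cells. Spp1, limited by the rule, had 244 UMIs in the cKO arch and 0 in the cKO descending cells, at least 86.6-fold higher. Thinned to the same depth, 31.3% of leukocyte-gated and 6.67% of smooth muscle cells of the cKO arch held a Spp1 UMI. The part of free RNA in the list was not tested. Per cell and without Spp1, the list took a median of 1.68% of UMIs in the cKO arch, 1.27% in the cKO descending, 1.55% in the control arch and 1.24% in the control descending cells.

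Chondrogenic and osteogenic genes had a median of 0.62 over 12 tested members, 4 past 2-fold higher and 1 lower. The control pair had a median of 0.21, with 5 of 16 higher and 2 lower. Over all genes 2.5% were past 2-fold higher and 6.2% lower in the cKO pair, and 1.88 and 3.16% in the control pair. Acan (aggrecan) stood at 87.5, 14.4, 27.4 and 22.8 CPM and Cytl1, a secreted cartilage protein, at 27.8, 2.03, 6.05 and 1.16 CPM, while the cartilage factor Sox5 stood at 13.3, 38.6, 21.3 and 34.1 CPM. Interferon-stimulated genes had a median of 0.78 with 10 of 22 past 2-fold higher, and all 22 met the free RNA rule above. That rule cannot tell free RNA from expression by the leukocyte-gated cells themselves. Inflammatory mediators had 0.63, with 6 of 15 past 2-fold higher and 10 of 15 meeting the rule. For interferon-stimulated genes the control median was 0.31, with 6 of 23 past 2-fold higher and 1 lower. For inflammatory mediators it was -0.15, with none of 13 past 2-fold. Summed leukocyte markers stood at 167 and 111 CPM in the cKO pair with Ptprc at 0 by the rule, and red cell markers at 313 and 1103 CPM.

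**Figure D4:**
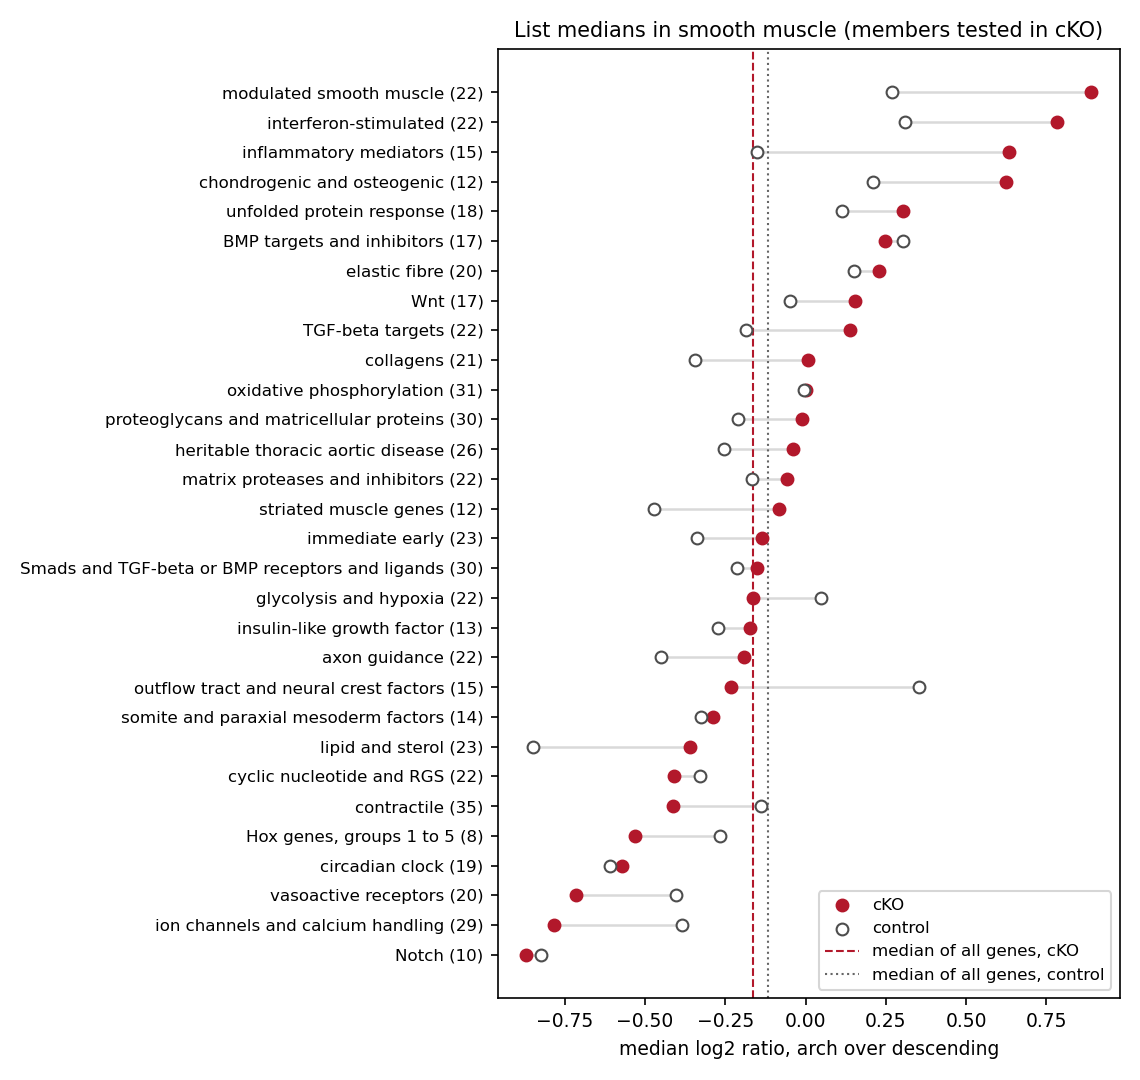
Median log2 ratio of arch over descending smooth muscle (horizontal axis) for each gene list in the cKO pair (filled) and the control pair (open), with the number of members tested in the cKO pair and vertical lines at the median of all genes, -0.16 in cKO and -0.12 in control. Medians run from -0.87 (Notch) to 0.89 (modulated smooth muscle), and Hox genes of groups 6 to 13 are left out at -3.81 and -5.97.

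Smad4 transcripts were present in both regions. Smad4 stood at 63.7, 88.0, 69.6 and 94.1 CPM, a log2 ratio of -0.47 (-0.61 to -0.32) in the cKO pair and -0.44 in the control pair, so the arch was lower in both genotypes. Reads at the 5′ end may not reach a deleted exon further along, and this was not tested. Of 30 tested Smads, receptors and ligands 3 were past 2-fold higher and 2 lower, beside 2.5 and 6.2% of all genes. Their median was -0.15, close to that of all genes. The BMP receptor Bmpr1b stood at 14.3, 25.3, 47.7 and 25.2 CPM, and Tgfbr3 (betaglycan) at 55.7, 95.5, 89.9 and 110 CPM.

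BMP targets and inhibitors had a list median of 0.25 in the cKO and 0.30 in the control pair. Both lie above the all-gene medians of -0.16 and -0.12. Of 17 tested members 3 were past 2-fold lower and none higher in the cKO arch, beside 6.2 and 2.5% of all genes. The control pair had 2 of 17 lower and 3 higher, beside 3.16 and 1.88%. Id4, an inhibitor of helix-loop-helix factors, stood at 35.3, 110, 112 and 81.9 CPM, a log2 ratio of -1.64 (-1.81 to -1.48), low in the cKO arch alone. Id1 stood at 79.9, 55.7, 113 and 70.8 CPM and Id3 at 912, 711, 1003 and 813 CPM, higher in the arch of both genotypes. Vwc2, a secreted BMP antagonist, stood at 92.7, 88.2, 18.3 and 0.0967 CPM, level in the cKO pair, and the last value is 1 UMI. TGF-beta targets had a median of 0.14 with Ccn2 at 2319, 1221, 2218 and 1421 CPM.

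The cKO arch file counts a feature named RFP, and cells with much of it differed in these genes. Of the 833 cKO arch cells 274 (32.9%) had 16 or more RFP UMIs, 76 had 8 to 15 and 483 had fewer than 8, against 0.475% of 1263 leukocyte-gated cells with 16 or more. Against the cKO descending cells, the BMP target list had a median of -0.39 in RFP-high and 0.30 in RFP-low arch cells. The Smad4 level was 35.6 CPM in the RFP-high arch cells and 73.6 CPM in the RFP-low ones, beside 88.0 CPM in cKO descending cells. Whether RFP is the R26-tdT reporter is not stated in the labels, and both RFP groups come from 1 library.

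The regional genes themselves were found on both sides of the RFP split, with exceptions. Hand2 levels were 70.9 and 60.6 CPM in the RFP-high and the RFP-low cells, and posterior Hox UMIs were found in 5.11 and 12.01% of them, whose median depths were 9432.5 and 11807 UMIs. Rspo3, a Wnt agonist, stood at 76.5 and 25.7 CPM against 8.10 CPM in the descending cells, and Pln at 58.7 and 14.5 CPM against 80.7 CPM. Esm1, a proteoglycan best known from endothelium, stood at 2.31 and 46.3 CPM in the same order against 0.264 CPM in the descending cells, and 44 cells of the cKO arch held all of its UMIs. Rgs5 stood at 31.0 and 159 CPM against 735 CPM.

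Clock genes went both ways in the control pair. Of 19 tested members 5 were past 2-fold lower in the cKO arch and none higher, beside 6.2 and 2.5% of all genes, with a median of -0.57. In the control pair 4 of 18 tested were higher and 7 lower, beside 1.88 and 3.16% of all genes there. The output factor Dbp stood at 177, 420, 10.2 and 372 CPM and Per3 at 23.2, 86.0, 8.82 and 97.5 CPM, with the control arch lowest. Arntl, which peaks in the opposite phase to Dbp, stood at 7.13, 3.61, 40.1 and 3.29 CPM. Fibroblast-gated cells of the cKO pair had a Dbp ratio of -1.23. Collection times are not stated in the labels.

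Some of the largest ratios were shared by the whole library and marked by its annotation. Tonsl, a DNA repair factor, stood at 151 CPM in the cKO arch and at 1.76, 0.664 and 1.74 CPM in the other libraries, with log2 ratios of 6.18 and 7.43 in fibroblast- and endothelial-gated cells. Srp54a, a signal recognition particle subunit with close paralogs, had 0 UMIs in the cKO arch and 376 in the cKO descending cells, at least 118-fold lower, beside 37.2 and 32.8 CPM in the control pair. Isoc2a stood at 2.25, 52.0, 34.2 and 46.0 CPM. Over all kept cells, 19 tested genes were at least 8-fold above and 27 at least 8-fold below every other library in the cKO arch. The 19 include Tonsl, Igfbp2, Tnfrsf11b, Comp, Esm1 and Spp1. The 27 include Srp54a, Isoc2a, Igsf9b, Pakap and Myh6. For these genes annotation and condition cannot be told apart.

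The control pair gives the corresponding regional ratio in mice without the floxed Smad4. Its libraries also differ in the Y-linked gene Ddx3y, found in the control arch alone, and in clock genes such as Dbp. In the control pair, region cannot be told apart from what underlies these differences. The control pair shares no library with the cKO pair. Of 11039 genes tested in it, 207 (1.88%) were at least 2-fold higher and 349 (3.16%) at least 2-fold lower in the arch, together 5.04%. Of 215 higher genes tested in both pairs, 52 were also past 2-fold higher in the control arch (24.2% of the cKO list and 43.3% of the control list). Of 630 lower genes 154 were also past 2-fold lower (24.4 and 52.6%). The control ratio was within 1.5-fold of level for 102 (47.4%) of the higher and 354 (56.2%) of the lower genes. Past 2-fold in opposite directions were 11 and 2 genes. The cKO ratio exceeded the control ratio by at least 2-fold for 275 genes (2.7%) and was below it by as much for 421 (4.13%), together 6.82% of the genes tested in both. Across the 10199 genes tested in both pairs the log2 ratios had a Pearson r of 0.47 and a Spearman rho of 0.40, as a description over genes, which are not independent replicates.

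**Figure D5:**
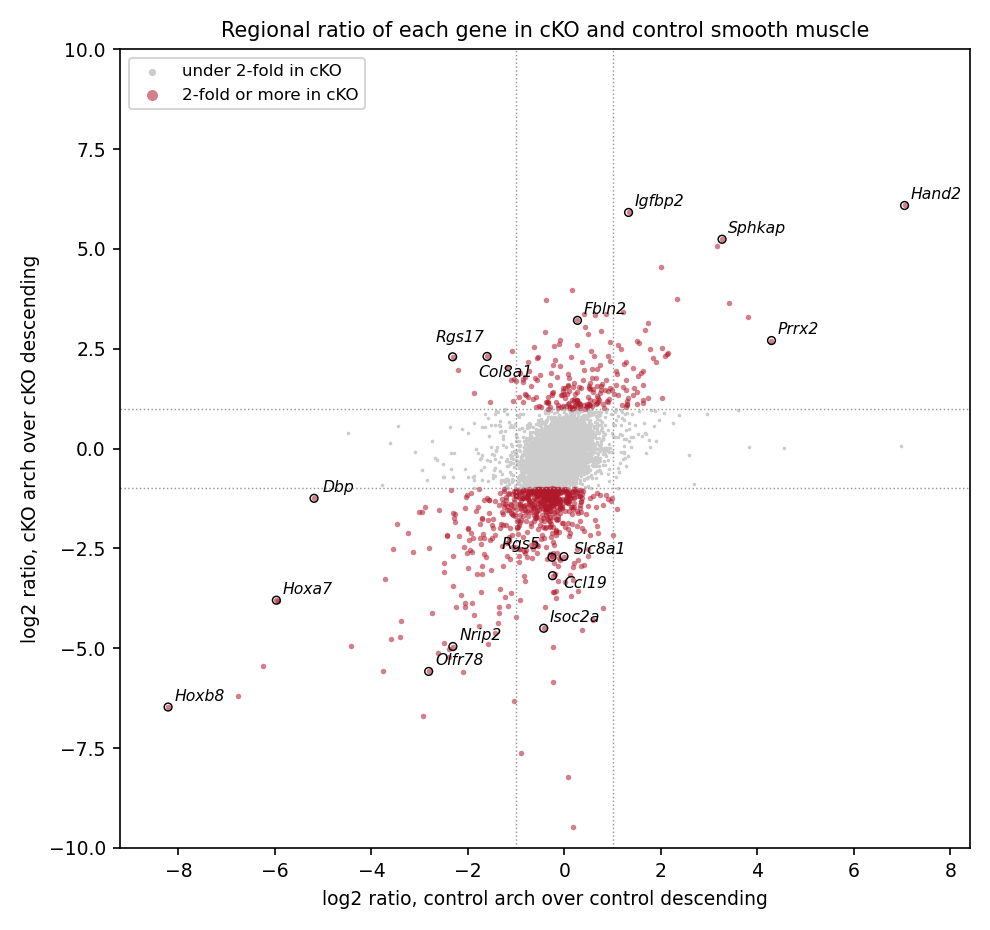
Log2 ratio of arch over descending smooth muscle for each gene with at least 100 UMIs in both pairs, in the control pair (horizontal axis) and in the cKO pair (vertical axis), with dotted lines at 2-fold and genes past 2-fold in the cKO pair in red. Hand2, Hoxa7 and Hoxb8 lie far out along both axes, Rgs5, Slc8a1 and Ccl19 in the cKO pair alone, and Rgs17 and Col8a1 have opposite signs. A gene at 0 UMIs is drawn with a prior of 0.5 UMI.

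The genes past 2-fold the same way in both pairs included Hand2, Sphkap, Prrx2, Tnnt2 and Sfrp2 on the arch side. Tnnt2, cardiac troponin T, stood at 64.8, 5.11, 57.1 and 5.32 CPM, while Myh6, the heart muscle myosin heavy chain, had 0 UMIs in the cKO arch cells and stood at 9.25 CPM in the cKO descending cells. Sfrp2, a secreted Wnt modulator, stood at 350, 122, 352 and 130 CPM. On the descending side they included Igfbp5, at 122, 573, 129 and 433 CPM, with 57.6% of its cKO descending UMIs in odorant receptor cells and a ratio of -0.89 without cells of the 4 gating genes, no longer past 2-fold, and the guidance cue Sema3a, at 2.25, 22.1, 1.64 and 21.8 CPM. For Sfrp2 and Sema3a each region stood at nearly the same level in both genotypes. Sema3c, another guidance cue, stood at 54.1, 150, 165 and 144 CPM and was low in the cKO arch alone. The control arch library alone held UMIs of the Y-linked gene Ddx3y (370, against 0 in each other library), and the sexes of the animals are not stated in the labels.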

How the data were processed

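Single cells of 4 libraries were profiled with a droplet 5′ assay. The deposited values are raw UMI counts per gene and barcode, made by the authors with Cell Ranger (6.1.1 per the submitters' processing notes, 6.1.2 per the file headers) on mm10. The cKO arch file was counted against another annotation. Genes were matched by Ensembl identifier (27734 shared) and named after the other files. UMIs of the chosen cells were summed per library, scaled to CPM over shared genes and compared as log2 ratios with a prior of 0.5 UMI. Genes with at least 100 UMIs in a pair were tested for size only, and called at 2-fold. With 1 library a group there is no p-value. Intervals are exact and cover counting error. A count of 0 was bounded at 3 UMIs. Fibroblast-, endothelial- and leukocyte-gated cells gave whole-library and free RNA references. Named genes were the 12 highest and 12 lowest after those filters, the 5 highest and lowest whole-library genes, and up to 3 per list. Hox genes with enough UMIs, the first 6 contractile genes and Smad4 were added. Other genes in the text are examples from outside this rule. Ratios without odorant receptor cells were made for named genes and a few others, so examples such as Ednra, Kcnk3 and Casq2 lack them. Doublets were not removed, except as an alternative. The ratio code was checked on simulated data. Members and lists were chosen with earlier results of these data known. Python 3.11.15 with numpy 2.4.6, pandas 2.3.3, scipy 1.17.1 and scanpy 1.11.5 was used. A few genes are not reported here.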

Additional observations from a re-analysis of the deposited data

Results flagged for a closer look

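Col8a1 and Rgs17 had regional ratios of opposite sign in the 2 genotypes. Col8a1, a short-chain collagen, had log2 ratios of 2.31 in the cKO pair and -1.60 in the control pair, a difference of 3.91. Rgs17, a regulator of G protein signalling, had 2.30 and -2.32, a difference of 4.61. Each direction rests on 1 library per group, and neither difference was tested. The RFP feature, which the main regional comparison does not use, was counted in the cKO arch file alone. There 32.9% of smooth muscle cells held 16 or more RFP UMIs, against 0.475% of leukocyte-gated cells.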

How the results depend on the processing

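Of 20 settings 4 were chosen after seeing the data: leaving out cells with a UMI of Olfr78 or Olfr558, or of any of these, Nrip2 and S1pr3, allowing 1 UMI each of Ptprc, Pecam1 and Pdgfra, and keeping gene identifiers with 1 symbol in every file. The 256 higher and 636 lower genes became 109 and 312 with cells thinned to 3000 UMIs, 441 and 1043 at a minimum of 30 UMIs, 139 and 316 at 300 UMIs, 542 and 1708 at 1.5-fold, and 85 and 171 at 4-fold. Median-of-ratios scaling gave 343 and 479. Of the lower genes, 24.4% were also lower in the control pair. This share was 20.8% with RFP-high arch cells only, 15.2% without Olfr78 or Olfr558 cells, 12.9% without cells of the 4 genes and 21.0% with 1 UMI of each lineage gene allowed. Without Olfr78 or Olfr558 cells the log2 ratios of Pln and Adamtsl1 turned to 0.15 and 0.18. Without cells of the 4 genes they were 1.16 and 1.21, and those of Sorbs2 and Cacna1h 0.37 and 0.25. Of 31 lists 18 kept 1 sign of their median and 13 did not. The automatic doublet call marked 0.120% of cKO arch cells, too few to use, so the highest scores were removed instead. No paired analysis was possible because each group holds 1 library. At this depth, genes under 100 UMIs were not compared.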
